A study of Mus musculus with 18 samples.

Results

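The heat shock chaperone genes are 10 genes of the protein folding machinery, *Hspa1a*, *Hspa1b*, *Hspa8*, *Hsp90aa1*, *Hsp90ab1*, *Hsph1*, *Dnajb1*, *Hspd1*, *Hspe1* and *Hspb1*. They were found by Ensembl identifier, through the GENCODE M21 names, among the 54446 genes of the deposited counts, and all 10 were present. Nascent RNA of WT and *Tet2*-KO (*Tet2*-/-) mES cells was labelled for 10, 20 or 40 min with 1 mM 5-ethynyl uridine (EU), a uridine analogue that cells build into new transcripts and that can be biotinylated and captured on streptavidin beads. Each of the 6 groups of genotype and EU time had 3 replicates, which makes 18 libraries. Both lines were grown in serum medium with LIF, CHIR99021 and PD0325901 and were passaged off feeder cells, and the groups differed in no other agent. Only 1 WT and 1 *Tet2*-KO line are named in the methods, so replicates stand for dishes and not for clones, and p-values measure the spread between dishes only. The comparison of genotypes asks whether transcription of a gene changed without TET2, a dioxygenase that oxidizes 5-methylcytosine, and the EU times give its labelling rate.

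Chaperones bind unfolded proteins and help them to fold. HSP70 proteins (the inducible *Hspa1a* and *Hspa1b* and the constitutive *Hspa8*) take up clients that J-domain proteins such as the *Dnajb1* product deliver, and the HSP110 protein of *Hsph1* exchanges their nucleotide. HSP90 (*Hsp90aa1* and *Hsp90ab1*) completes the folding of kinases and receptors, the mitochondrial chaperonin is built from HSP60 (*Hspd1*) and its lid HSP10 (*Hspe1*), and *Hspb1* encodes a small heat shock protein that holds unfolded clients. On heat or proteotoxic stress the factor HSF1 binds heat shock elements, which are inverted repeats of GAA and TTC, and induces *Hspa1a*, *Hspa1b*, *Hsph1*, *Dnajb1* and *Hspb1* strongly. *Hspa8* and *Hsp90ab1* are expressed at high levels in unstressed cells, embryonic stem cells included.

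The sequences of the promoters are shown because HSF1 sites are what the inducible genes are known for and because *Hspa1a* and *Hspa1b* are nearly identical upstream. RefSeq promoter windows (GRCm38.p6, 250 bases before to 50 after a start) matched 7 of the 10 genes, and *Hspa8*, *Hsp90aa1* and *Hsp90ab1* had no entry. The bases before *Hspa1a* (chr17:34972157-34972406, minus strand) and *Hspa1b* (chr17:34959239-34959488, minus strand) follow, in the direction of transcription and with the 2-unit heat shock motif GAANNTTC in capitals.
Hspa1a: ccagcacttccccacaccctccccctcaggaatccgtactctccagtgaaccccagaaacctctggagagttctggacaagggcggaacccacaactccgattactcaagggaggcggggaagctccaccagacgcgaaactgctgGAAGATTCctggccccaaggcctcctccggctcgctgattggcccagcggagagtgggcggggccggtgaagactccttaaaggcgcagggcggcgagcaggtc
Hspa1b: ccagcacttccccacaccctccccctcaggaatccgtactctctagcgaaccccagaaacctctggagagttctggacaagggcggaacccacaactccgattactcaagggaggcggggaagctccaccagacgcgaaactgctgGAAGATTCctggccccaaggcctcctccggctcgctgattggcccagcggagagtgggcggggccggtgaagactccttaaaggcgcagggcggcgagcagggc
These 250 bases differed at 3 positions and were 98.8% identical. In *Hspb1* the motif occurred at 2 places before the start, at chr5:135887798-135887813 and chr5:135887818-135887833 on the plus strand, and these are shown with 4 bases on each side.
Hspb1, first: aagaGAAGTTTCcaga
Hspb1, second: ggcaGAACCTTCctgg
*Hspd1* and *Hspe1* are transcribed away from each other, and a run of 4 alternating units lay before *Hspe1* at chr1:55088055-55088080. This place is inside the annotated span of *Hspd1*. It was in the window of an internal start of *Hspd1*, and the window of the outermost start (chr1:55088194-55088493) held none of the heat shock motifs. The run is written as each gene reads it, with the capitals on the 18 bases covered by the 3-unit motif, in which GAANNTTC is followed by NNGAA.
Hspd1 (minus strand): ggccTTCCGGAAGGTTCTAGAAcgga
Hspe1 (plus strand): tccgTTCTAGAACCTTCCGGAAggcc
In *Hsph1* the 2-unit motif TTCNNGAA lay 33 bases before 1 annotated start and 54 before another, at chr5:149636358-149636373 on the minus strand. A 3-unit motif lay 15 bases after 1 of these starts, at chr5:149636284-149636304 on the minus strand, and is shown.
Hsph1: cagaTTCTGGAAAGTTCtcct
Of the 32851 promoter windows of the table, 0.603% held the 3-unit motif, 7.86% held GAANNTTC and 8.52% held TTCNNGAA. Both strands were searched, and the 3-unit motif contains both of the shorter ones. None of these 3 motifs was found in the windows of *Dnajb1*. CCAAT, held by 37.4% of all windows, was found for *Hspa1a*, *Hspa1b*, *Hspd1*, *Hsph1* and *Dnajb1*, and TATAAA, held by 13.6%, for none of the 7 genes. The match is a description of sequence, and binding was not measured.

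All 10 genes are protein-coding. On GRCm38 (mm10), *Hspa1a* (chr17:34969190-34972156) and *Hspa1b* (chr17:34956436-34959238) are genes without introns on the minus strand. *Hsp90ab1* lies at chr17:45567775-45573271, *Hspa8* at chr9:40800984-40810087, *Hsp90aa1* at chr12:110690605-110702728, *Hsph1* at chr5:149614287-149636376, *Dnajb1* at chr8:83608193-83612653, *Hspd1* at chr1:55077835-55088243, *Hspe1* at chr1:55088132-55091307 and *Hspb1* at chr5:135887919-135889563. The counts themselves show what was counted. Of 5651 genes that lie wholly inside 1 other gene on the opposite strand, 72.6% had reads, against 0.168% of 5347 such genes on the same strand. Reads were therefore assigned by strand over whole gene spans, introns included, and reads that fit 2 genes on 1 strand were left out. *Hspa8* hosts 3 snoRNA genes (*Snord14c*, *Snord14d* and *Snord14e*) that stood at 0 reads in every library, and *Hspd1* and *Hspe1* overlap by 112 exonic bases on opposite strands. Copies limit some members. The share of 50-base stretches of a gene's transcripts that also occurs in another gene was 60.3% for *Hspa1a* and 62.3% for *Hspa1b*, nearly all of it shared between them, so reads in these stretches could not be assigned to either. It was 48.8% for *Hspb1*, 47.5% for *Hsp90aa1*, 39.7% for *Hspd1*, 38.6% for *Hspa8* and 18.4% for *Hspe1*, mostly through pseudogenes, and at most 3.44% for *Hsp90ab1*, *Dnajb1* and *Hsph1*.

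Libraries held 17931614 to 23069143 reads on genes and 44162 to 512186 reads on the ERCC spike-in, which was added to the eluted RNA in proportion to total RNA. Values are given on 2 scales. Reads per 1000 ERCC reads give a level against the spike-in, and CPM, the reads of a gene per 1000000 gene reads of the library, gives its share of the reads counted on genes. All genes of a library have the same ERCC total, so an error in it moves every member alike. The median log2 fold of all 19910 genes tested was 0.70 for *Tet2*-KO over WT per ERCC read (mean of the 3 EU times) and -0.04 as a share. Reads on *Tet2* were not lost in libraries labelled *Tet2*-KO (9730 to 13011 reads, against 13117 to 17092 in WT), and a sum over the whole gene cannot reveal the loss of single exons. The 8 pluripotency markers summed to 2872 to 3053 CPM in WT and to 2093 to 2210 in *Tet2*-KO. *Zfp42* (520 to 568 CPM against 103 to 122), *Tfcp2l1* (889 to 1073 against 657 to 794) and *Klf4* (124 to 173 against 85.3 to 102) were apart, whereas *Pou5f1* (74.9 to 108 against 79.8 to 113), *Nanog*, *Esrrb* and *Dppa5a* overlapped between the genotypes. *Sox2*, at 0 reads in every library, lies inside *Sox2ot* on the same strand and could not be counted. Feeder fibroblast markers (7 genes) summed to 2.75 to 15.7 CPM in WT and 5.14 to 12.6 in *Tet2*-KO. Primitive endoderm markers (5 genes) summed to 11.9 to 18.1 and 11.9 to 16.1, and trophectoderm markers (5 genes) to 7.38 to 11.5 and 5.30 to 7.98. The part of the lower sum of pluripotency markers in the results below was not tested.

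The 10 genes together took 0.565% ± 0.00542 (SD, n = 3) of gene reads in WT at 10 min and 0.637% ± 0.00340 in *Tet2*-KO at 40 min, the lowest and highest group means. *Hsp90aa1* alone held 50.3% of these reads, *Hsp90ab1* 29.4% and *Hspa8* 10.1%. *Hspa1a* and *Hspa1b* together with *Dnajb1* and *Hspb1* held under 1%. Levels between genes were compared per length. In CPM per kilobase of exon, over the 9 WT libraries, the order was *Hsp90aa1* at 705 ± 10.7 (SD), *Hsp90ab1* at 571 ± 47.7, *Hspa8* at 172 ± 14.8, *Hspe1* at 122 ± 10.4, *Hspd1* at 87.6 ± 9.05, *Hsph1* at 21.04 ± 3.15, *Hspb1* at 10.99 ± 1.34, *Dnajb1* at 8.56 ± 0.931, *Hspa1b* at 0.483 ± 0.139 and *Hspa1a* at 0.316 ± 0.140. The spread covers all 3 EU times. In that order only *Hspb1* with *Dnajb1* and *Hspa1b* with *Hspa1a* had ranges that overlapped. In *Tet2*-KO, *Hspe1* at 122 ± 8.29 stood before *Hspa8* at 108 ± 7.55, and the ranges of these genes overlapped. Because introns were counted, length was also taken as the gene span, and *Hsp90ab1* then came first with 311 ± 26.0 in WT and *Hsp90aa1* second with 229 ± 3.47. By span, *Hsp90ab1* ranked 11 and *Hsp90aa1* 13 among the 15158 protein-coding genes tested in WT, whereas *Hspa1b* ranked 8714 and *Hspa1a* 9722. Neither of these HSP70 genes had more than 40 reads in any library. Transcript stretches shared with other genes (60.3% for *Hspa1a*, 47.5% for *Hsp90aa1* and 3.44% for *Hsp90ab1*) were not taken off either length. Levels per length of genes with copies may therefore be understated in these orders and ranks, by an amount that was not measured.

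Per ERCC read, 7 of the 10 genes were higher in *Tet2*-KO over the mean of the 3 EU times (adjusted p under 0.05) and 0 were lower, where 80.5% of all genes tested were called higher and 4.15% lower. The 7 were *Hsp90aa1*, *Hsp90ab1*, *Hsph1*, *Dnajb1*, *Hspd1*, *Hspe1* and *Hspb1*, and the median log2 fold of the 10 was 0.67. At 10 min 8 were higher, with *Hspa8* added, where 79.0% of all genes were called higher and 2.10% lower. At 20 min 7 were higher against 53.7% of all genes, and 4.86% of all genes were lower. At 40 min 7 were higher against 68.2%, and 2.84% of all genes were lower. No member was called lower at any time by edgeR or by DESeq2, and 1 (*Hspa1a* at 40 min) had an unadjusted p under 0.05 in that direction. As a share of gene reads, 3 members were higher in *Tet2*-KO (*Hsp90aa1*, *Hsp90ab1* and *Hspd1*), where 24.6% of all genes were, and 5 were lower (*Hspa8*, *Hspa1a*, *Hspa1b*, *Dnajb1* and *Hsph1*), where 32.0% were. The same 3 were higher at each EU time, against 17.9% of all genes at 10 min, 17.6% at 20 min and 18.9% at 40 min. The lower count was 4 at 10 min, 1 at 20 min and 4 at 40 min, against 27.1%, 20.7% and 19.6% of all genes. Of the lower calls, *Hspa8* was called at each time, *Hspa1a* and *Dnajb1* at 10 and 40 min, *Hspa1b* at 10 min and *Hsph1* at 40 min. Counts of 7, 3 and 5 in 10 lie near the shares of all genes, so they are no result about chaperones as a group, and the members are described one by one. In bulk RNA, fewer cells that transcribe a gene and less RNA per cell cannot be told apart.

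**Figure D1:**
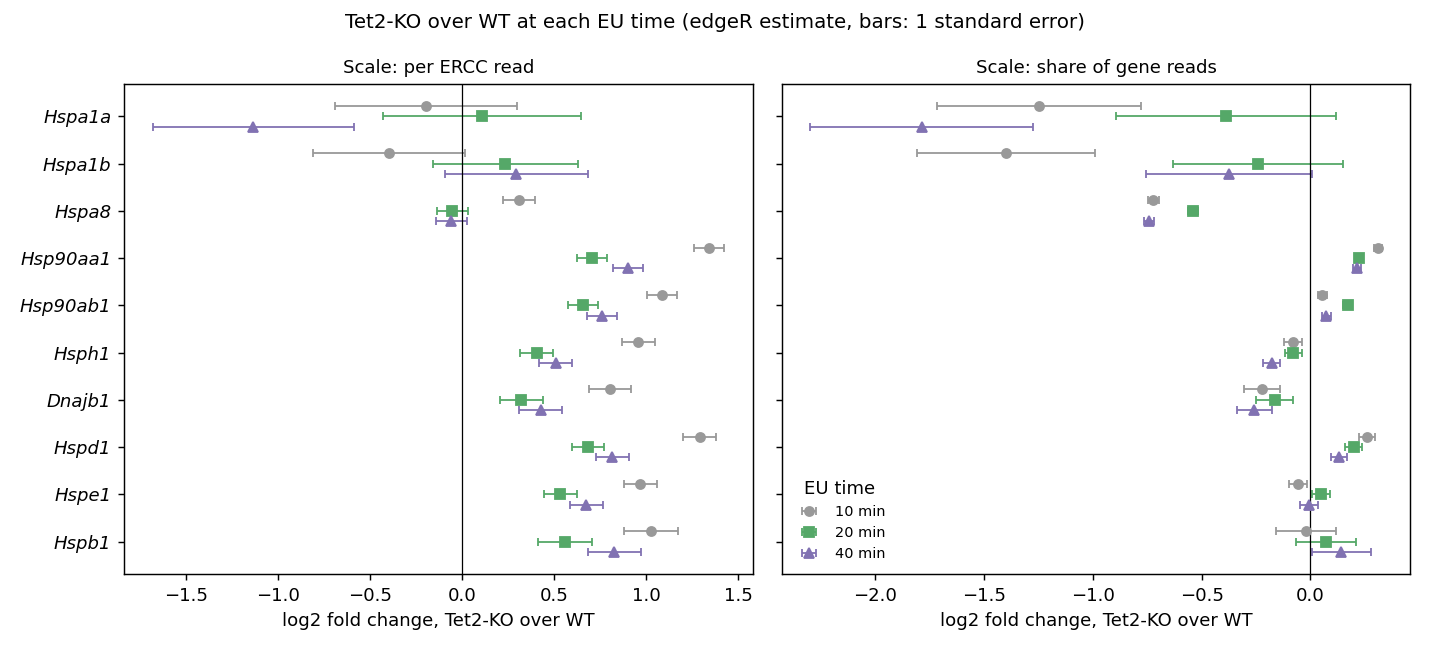
Log2 fold change of Tet2-KO over WT for each chaperone gene (vertical axis) at 10, 20 and 40 min of EU, per ERCC read on the left and as a share of gene reads on the right, with points for the edgeR estimate and bars for 1 standard error. On the share scale Hspa8 sits between -0.74 and -0.54 at all 3 times while Hsp90aa1 sits between 0.21 and 0.31, and the bars of Hspa1a and Hspa1b are wide.

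*Hspa8*, the constitutive HSP70 of the cytosol, had the lowest adjusted p of the members as a share, and it was lower in *Tet2*-KO. In WT it took 693, 708 and 699 CPM at 10 min, 708, 687 and 699 at 20 min and 849, 818 and 803 at 40 min. In *Tet2*-KO it took 416, 422 and 437 at 10 min, 476, 477 and 488 at 20 min and 481, 491 and 505 at 40 min. Every *Tet2*-KO library was below every WT library, also across EU times. The log2 fold was -0.67 ± 0.01 (SE) over the mean of the 3 times (adjusted p = 6.29e-29), with -0.72 at 10 min, -0.54 at 20 min and -0.74 at 40 min. Per ERCC read the level was 32.7 ± 3.07 (SD, n = 3), 103 ± 5.00 and 203 ± 10.1 in WT and 40.6 ± 3.15, 99.0 ± 6.74 and 196 ± 13.9 in *Tet2*-KO at the 3 times. These values overlapped at 20 and 40 min, and the log2 fold was 0.07 ± 0.05 over the mean (adjusted p = 0.196), with 0.31 ± 0.08 at 10 min (adjusted p = 0.000458). The interval of the mean, taken as 2 SE, ran from -0.03 to 0.16 and did not reach the 0.70 of the median gene.

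The inducible HSP70 genes *Hspa1a* and *Hspa1b* had few reads. *Hspa1a* had 17, 22 and 38 reads in WT at 10 min, 19, 5 and 13 at 20 min and 18, 22 and 26 at 40 min, and in *Tet2*-KO 11, 5 and 13, then 7, 11 and 9, then 5, 9 and 3. It reached 10 reads in 8 of 9 WT and 3 of 9 *Tet2*-KO libraries, so it passed the filter on low counts mainly through WT, and its call as lower cannot support a difference. Its log2 fold as a share was -1.14 ± 0.29 (adjusted p = 0.000996). *Hspa1b* had 40, 39 and 19 reads in WT at 10 min, 26, 30 and 16 at 20 min and 24, 34 and 29 at 40 min, and in *Tet2*-KO 13, 15 and 5, then 19, 22 and 18, then 12, 22 and 26. Its groups overlapped as shares at 20 and 40 min, and the log2 fold was -1.40 ± 0.41 at 10 min and -0.67 ± 0.23 over the mean (adjusted p = 0.0126). Per ERCC read neither gene was called over the mean, with a log2 fold of -0.41 ± 0.31 for *Hspa1a* (adjusted p = 0.204) and 0.04 ± 0.24 for *Hspa1b* (adjusted p = 0.864). Reads in the stretches that these genes share were counted on neither.

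**Figure D2:**
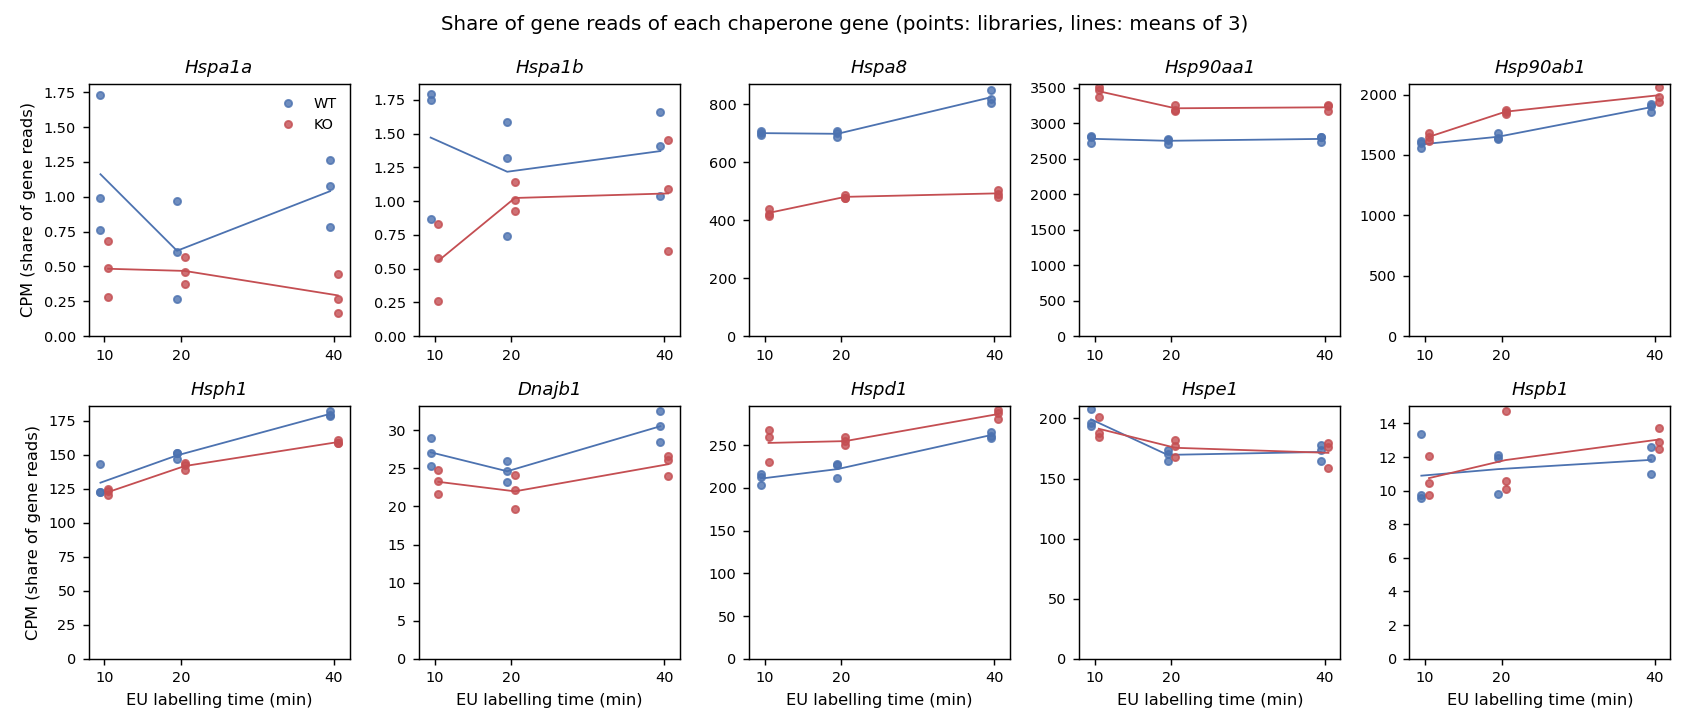
Share of gene reads as CPM (vertical axis, from 0) of each chaperone gene against EU labelling time in minutes, with a point for each of the 18 libraries and lines through the means of 3, WT in blue and Tet2-KO in red. Hspa8 is lower in Tet2-KO at every time (416 to 505 against 687 to 849), Hsp90aa1 is higher (3175 to 3519 against 2708 to 2816), and Hspe1 and Hspb1 overlap at every time.

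The HSP90 genes were higher in *Tet2*-KO on both scales. *Hsp90aa1*, the stress-responsive cytosolic HSP90, took 2717, 2812 and 2816 CPM at 10 min in WT, 2708, 2768 and 2783 at 20 min and 2734, 2803 and 2803 at 40 min. In *Tet2*-KO it took 3469, 3519 and 3369, then 3262, 3179 and 3194, then 3244, 3257 and 3175, all above the highest WT library. The log2 fold of the share was 0.25 ± 0.01 over the mean (adjusted p = 9.29e-21). *Hsp90ab1*, the constitutive HSP90, took 1612, 1556 and 1596 CPM in WT and 1648, 1685 and 1618 in *Tet2*-KO at 10 min, 1629, 1640 and 1683 against 1842, 1859 and 1876 at 20 min, and 1925, 1903 and 1860 against 1979, 1941 and 2066 at 40 min. These groups did not overlap at any time, but the gap was small, with a log2 fold of 0.10 ± 0.01 (adjusted p = 6.16e-09). Per ERCC read the log2 folds were 0.98 ± 0.05 for *Hsp90aa1* (adjusted p = 9.93e-66) and 0.83 ± 0.05 for *Hsp90ab1* (adjusted p = 4.70e-51).

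The HSP70 partners were higher per ERCC read and slightly lower as shares. *Hsph1*, the HSP110 nucleotide exchange factor, took between 122 and 143 CPM in WT at 10 min, then 146 to 151, then 178 to 182. The *Tet2*-KO ranges were 120 to 124, 139 to 144 and 159 to 161. The groups overlapped at 10 min and were apart at 20 and 40 min, and the log2 fold over the mean was -0.11 ± 0.02 (adjusted p = 0.000104). *Dnajb1*, an HSP40 that delivers clients to HSP70, took between 25.4 and 29.0 CPM in WT at 10 min, then 23.2 to 25.9, then 28.5 to 32.5. The *Tet2*-KO ranges were 21.6 to 24.7, 19.7 to 24.1 and 24.0 to 26.6. Its log2 fold was -0.21 ± 0.05 (adjusted p = 0.000244), and its groups overlapped at 20 min only. Per ERCC read the log2 folds were 0.62 ± 0.05 for *Hsph1* (adjusted p = 1.18e-28) and 0.52 ± 0.07 for *Dnajb1* (adjusted p = 1.68e-13). On this scale the interval of 2 SE ran from 0.52 to 0.73 for *Hsph1* and held the 0.70 of the median gene. For *Dnajb1* it ran from 0.38 to 0.65 and did not reach it. These intervals include the error of the ERCC totals, which all genes of a library share. As a share, the interval of *Hsph1* ran from -0.16 to -0.07 and did not hold the -0.04 of the median gene.

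Of the mitochondrial pair, *Hspd1* was higher in *Tet2*-KO as a share and *Hspe1* was not called. *Hspd1* took 212, 216 and 204 CPM in WT and 231, 259 and 268 in *Tet2*-KO at 10 min, 228, 226 and 211 against 250, 254 and 260 at 20 min, and 266, 261 and 258 against 291, 281 and 287 at 40 min. The groups were apart at each time, with a log2 fold of 0.20 ± 0.02 (adjusted p = 1.75e-09). *Hspe1* took 194, 208 and 196 in WT and 185, 202 and 188 in *Tet2*-KO at 10 min, 174, 165 and 170 against 182, 168 and 177 at 20 min, and 178, 174 and 164 against 158, 176 and 179 at 40 min. Its groups overlapped at every time, and the log2 fold was -0.01 ± 0.02 (adjusted p = 0.868), with an interval of 2 SE from -0.05 to 0.04. Per ERCC read the log2 folds were 0.93 ± 0.05 for *Hspd1* (adjusted p = 1.18e-54) and 0.73 ± 0.05 for *Hspe1* (adjusted p = 5.33e-37). *Hspb1*, the small heat shock protein, took 9.55 to 13.4 CPM in WT and 9.71 to 14.8 in *Tet2*-KO over all times. Its log2 fold was 0.06 ± 0.08 as a share (adjusted p = 0.51) and 0.80 ± 0.08 per ERCC read (adjusted p = 1.50e-19).

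Between 10 and 40 min of EU the shares of 4 members rose in WT, where 16.1% of all genes were called higher, and 1 fell, where 29.5% were called lower. Those that rose were *Hsph1* (log2 fold 0.48 ± 0.04), *Hspd1* (0.31 ± 0.04), *Hsp90ab1* (0.26 ± 0.02) and *Hspa8* (0.23 ± 0.02), and *Hspe1* fell by 0.21 ± 0.04 on the log2 scale. In *Tet2*-KO the same 4 rose, by 0.38 ± 0.04, 0.18 ± 0.04, 0.27 ± 0.02 and 0.21 ± 0.02, against 16.5% of all genes. *Hspe1* (-0.16 ± 0.04) and *Hsp90aa1* (-0.10 ± 0.02) fell there, against 20.0%. The change of the share with EU time differed between the genotypes for 1 member, *Hsp90aa1*, at -0.10 ± 0.02 (adjusted p = 0.00902). By this test 3.36% of all genes were lower and 5.89% higher. No member was called higher as a share, by edgeR, DESeq2 or an unadjusted p under 0.05. Without the *Tet2*-KO 40 min replicate 1 library the fall of *Hspe1* in *Tet2*-KO was -0.11 (adjusted p = 0.0599). With TMM factors the median of all genes between 10 and 40 min went from -0.14 to -0.03 and the split from 3196 higher and 5875 lower to 4546 and 4383. *Hsp90aa1* then rose in WT by 0.10 (adjusted p = 2.28e-05) where its share had a log2 fold of 0.00 (adjusted p = 0.972), and *Dnajb1* rose by 0.27 (adjusted p = 0.00486) where its share had 0.17 ± 0.08 (adjusted p = 0.0758). TMM also moved the genotype split at 10 min from 3554 higher and 5389 lower to 4477 and 4262, and the split of the genotype difference in time from 1173 and 668 to 774 and 1219. Per ERCC read edgeR called the change with EU time lower in *Tet2*-KO for *Hspd1* (-0.47 ± 0.12), *Hsph1* (-0.45 ± 0.13), *Hsp90aa1* (-0.44 ± 0.12), *Hspa8* (-0.37 ± 0.12) and *Hsp90ab1* (-0.33 ± 0.12). Adjusted p ran from 0.0033 to 0.0328, and no member was called higher. Of all 19910 genes 3835 were lower and 110 higher on that scale, with a median of -0.29.

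**Figure D3:**
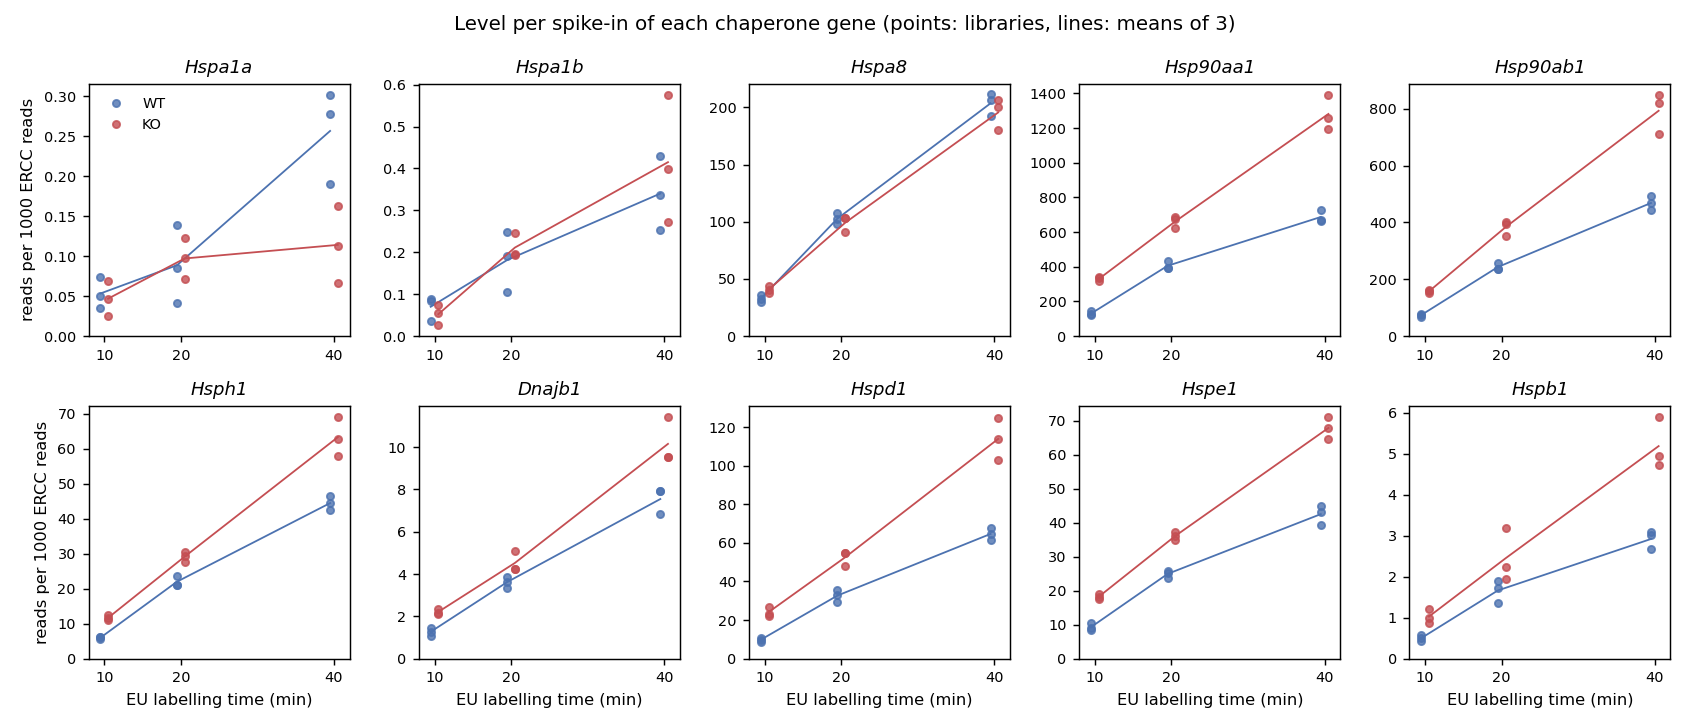
Reads per 1000 ERCC reads (vertical axis, from 0) of each chaperone gene against EU labelling time in minutes, with a point for each of the 18 libraries and lines through the means of 3, WT in blue and Tet2-KO in red. Levels rise with EU time in both genotypes. The lines of Hspa8 lie close at 40 min (203 in WT and 196 in Tet2-KO), while its groups are apart at 10 min (32.7 and 40.6). The lines of Hsp90aa1 part (687 and 1281 at 40 min).

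The labelling rate of a gene was the slope of its level per 1000 ERCC reads on EU time over 9 libraries of a genotype. *Hsp90aa1* had the highest rate, 17.9 ± 1.40 (SE) per min in WT and 31.6 ± 1.55 in *Tet2*-KO, a ratio of 1.76. *Hsp90ab1* followed with 12.9 ± 0.655 and 21.1 ± 1.13 (ratio 1.64), and *Hspa8* with 5.599 ± 0.248 and 5.12 ± 0.245 (ratio 0.914). The ratio was 1.67 for *Hspd1*, 1.53 for *Hspe1*, 1.77 for *Hspb1*, 1.36 for *Hsph1* and 1.29 for *Dnajb1*, against a median of 1.54 over 15075 protein-coding genes. *Hspa8* stood at percentile 8.02 of these genes, and *Hsp90aa1* at percentile 70.1. For *Hspa1b* (1.34) and *Hspa1a* (0.291) the ratio rested on at most 40 reads a library, and the log2 ratios were 0.42 ± 0.40 and -1.78 ± 0.70. The ratios depended on which EU times were used. From 10 and 20 min alone the log2 ratio of *Hsp90aa1* was 0.27 and from 20 and 40 min alone 1.14, and that of *Hspd1* went from 0.31 to 0.94. From 10 and 20 min alone the log2 ratio turned sign for *Dnajb1* (-0.03, against 0.37 ± 0.12 from all times) and for *Hspa1a* (0.51).

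Ratios of 2 members within a library need neither the spike-in nor the total. The 3 ratios below were chosen after the values were seen, so they are given as a description, with no test. Reads of *Hspe1* per read of *Hspd1* were 0.945 ± 0.0283 (SD, n = 3), 0.766 ± 0.0404 and 0.658 ± 0.0176 in WT at 10, 20 and 40 min, and 0.760 ± 0.0511, 0.690 ± 0.0355 and 0.599 ± 0.0472 in *Tet2*-KO. Averaged over both genotypes on the log2 scale, the ratio at 40 min was 0.740 times that at 10 min. It was 0.870 times as high in *Tet2*-KO, with overlapping groups at 20 min. *Hspd1* has the longer span (10409 bases against 3176). Reads of *Hsp90aa1* per read of *Hsp90ab1* were 1.75 ± 0.0616, 1.67 ± 0.0175 and 1.47 ± 0.0436 in WT and 2.09 ± 0.0116, 1.73 ± 0.0374 and 1.62 ± 0.0731 in *Tet2*-KO. They were 1.11 times as high in *Tet2*-KO, with no overlap at any time. Averaged over both genotypes, they were 0.805 times as high at 40 as at 10 min. Reads of *Hspa8* per read of *Hsp90ab1* were 0.415 to 0.455 in the 9 WT libraries and 0.243 to 0.270 in the 9 *Tet2*-KO libraries. The ratio was 0.587 times as high in *Tet2*-KO and, averaged over both genotypes, 0.972 times as high at 40 as at 10 min.

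**Figure D4:**
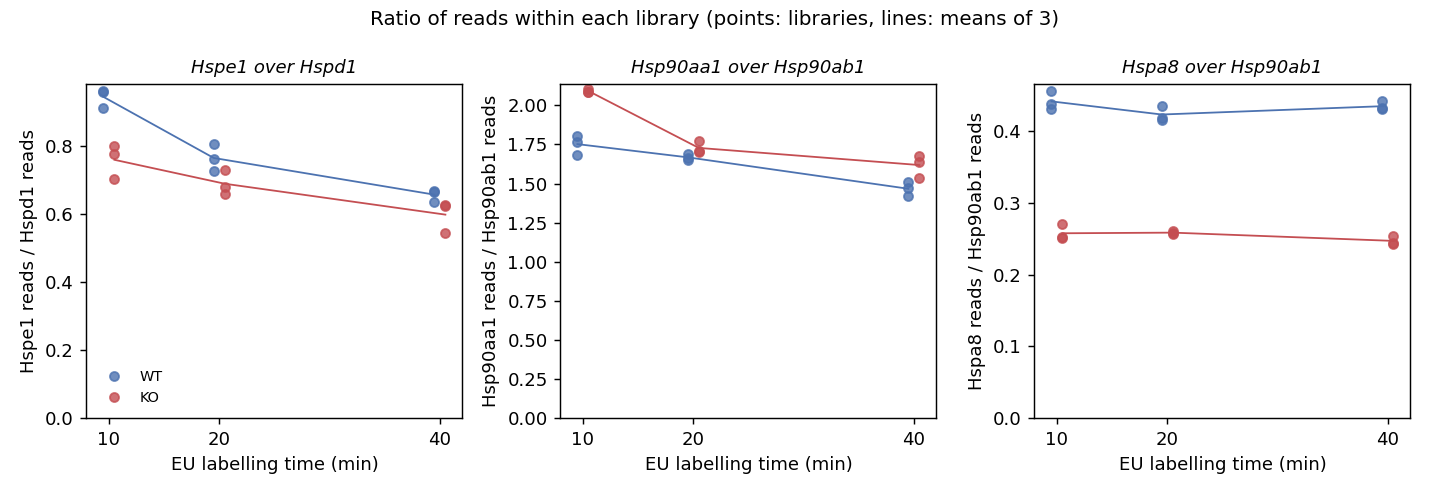
Reads of one gene divided by reads of another in the same library (vertical axis, from 0) against EU labelling time in minutes for 3 pairs, with a point for each of the 18 libraries and lines through the means of 3. Hspe1 over Hspd1 and Hsp90aa1 over Hsp90ab1 have lower means at 40 than at 10 min in both genotypes, and Hspa8 over Hsp90ab1 stays near 0.43 in WT and 0.25 in Tet2-KO.

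Other genes of the pathway were described from 9 lists with 91 genes, 85 of them tested. Per ERCC read 83 of the 85 were higher in *Tet2*-KO, beside 80.5% of all genes, and 0 were lower by edgeR, DESeq2 or an unadjusted p under 0.05. As a share 29 were higher and 26 lower, beside 24.6% and 32.0% of all genes. The median log2 fold of a list ran from -0.20 (other HSP70 and HSP110) to 0.15 (heat shock factors) as a share, beside -0.04 for all genes, and from 0.54 to 0.88 per ERCC read, beside 0.70. Among 6 heat shock factors and their partners, 3 were higher and 1 lower as a share, from *Hsf2bp*, which encodes an HSF2-binding protein (log2 fold 0.34 ± 0.02), to *Hsbp1*, an HSF1-binding inhibitor (-0.57 ± 0.06). Over all EU times *Hsbp1* ranged from 34.1 to 71.7 CPM in WT and from 22.6 to 48.4 in *Tet2*-KO, so these ranges overlapped, while the fold is the mean of the differences within EU times. Among 8 other HSP70 and HSP110 genes 1 was higher and 5 lower, with *Hspa4*, an HSP110, at 0.16 ± 0.01 and the testis HSP70 *Hspa1l*, under 2 CPM, at -0.56 ± 0.23. Of 17 HSP70 cochaperones 9 were higher and 2 lower, with the exchange factor *Bag2* at 0.48 ± 0.12 and the ubiquitin ligase *Stub1* at -0.25 ± 0.06. HSP90 cochaperones (11 tested) split into 4 higher and 4 lower. *Unc45a*, a myosin chaperone, was highest there at 0.39 ± 0.07, and *Fkbp4*, a prolyl isomerase of HSP90 complexes, was lowest at -0.53 ± 0.02 (133 to 155 CPM in WT and 93.5 to 109 in *Tet2*-KO).

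Of the 4 small heat shock genes tested 1 was higher (*Cryab*, 0.93 ± 0.34, with 0.0932 to 2.01 CPM in WT around 0.840 to 1.55 in *Tet2*-KO, so its highest library was WT) and 1 lower (*Hspb8*, -0.33 ± 0.05). The cytosolic chaperonin TRiC had 4 of 8 subunits higher and 3 lower as a share. They ran from *Tcp1* at 0.19 ± 0.02 to *Cct7* at -0.48 ± 0.02 (184 to 205 CPM in WT and 129 to 147 in *Tet2*-KO). Only the shares of this complex moved in both directions. Per ERCC read all 8 subunits were higher, *Cct7* included (0.25 ± 0.05). Prefoldin, which hands clients to TRiC, had 0 of 6 higher (also by DESeq2 or an unadjusted p under 0.05) and 2 lower, with *Pfdn2* at -0.24 ± 0.04. Of 10 other mitochondrial chaperones 2 were higher and 4 lower, from *Dnajc19*, of the import motor, at 0.21 ± 0.08 to *Grpel2*, a nucleotide exchange factor, at -0.34 ± 0.04. Of 15 chaperones of the endoplasmic reticulum 5 were higher and 4 lower, from the disulphide isomerase *Pdia4* at 0.56 ± 0.03 (138 to 225 CPM in WT and 221 to 313 in *Tet2*-KO) to the J-domain protein *Dnajb11* at -0.21 ± 0.03. With EU time 27 of the 85 rose as a share and 24 fell in WT, beside 16.1% and 29.5% of all genes, and 27 rose and 18 fell in *Tet2*-KO, beside 16.5% and 20.0%.

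Across the 18 libraries, the shares of *Hspa8* and *Hsp90aa1* ran against each other (Pearson r = -0.96 of log2 shares), and those of *Hsp90ab1* and *Hspd1* ran together (r = 0.82). These values are descriptions, because all points share the genotypes, EU times and library totals. Among the strongly inducible genes *Hspa1a*, *Hspa1b*, *Hsph1*, *Dnajb1* and *Hspb1* the pairwise r ran from -0.22 to 0.49, and among *Hspa8*, *Hsp90ab1*, *Hspd1* and *Hspe1* from -0.56 to 0.82. Few reads limit the r of *Hspa1a* and *Hspa1b*, and both ends of the first range came from pairs without them. Members of neither set all varied together, so no gene was named for likeness to their means.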

How the data were processed

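WT and *Tet2*-KO mES cells were compared over 18 libraries of EU-labelled RNA, grouped by the labels' genotype and EU time. The authors trimmed reads with Trimmomatic 0.39, aligned them with HISAT2 2.2.1 to mm10 and the ERCC sequences, and counted reads per gene with HTSeq 0.12.4, and they deposited raw counts without normalization. HTSeq's summary lines stayed out of all totals (no feature 13.2% to 16.9%, ambiguous 2.32% to 2.50%). Of 54446 identifiers 54409 were found in GENCODE M21. Calls used edgeR 4.0.16 (R 4.3.3), the quasi-likelihood test on 1 fit of the 6 groups over the 19910 genes kept by filterByExpr (minimum count 10), with Benjamini-Hochberg adjustment at 0.05 and with ERCC totals or gene totals as library sizes. The SE is the absolute log2 fold divided by the square root of F. On simulated data 200 of 200 genes changed by 1 log2 unit were recovered among 19910, with 8 unchanged genes called, for the mean difference of genotypes. The simulation had the same dispersion for all genes, no effect of EU time and gene totals as library sizes. Folds under 1 log2 unit and the ERCC scale were not simulated.

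The members and lists were chosen with earlier results of these data known. Named genes are all members, the highest and lowest called gene of each list by share, and the 5 genes most like each of 2 mean profiles, except that, once the values had been seen, no gene was named for likeness because members of a profile did not vary together. Lists were described by counts, without a test. The 18 replicate pairs differed beyond counting noise (chi-square per gene from 1.66 to 5.53 on average), so none was counted as a copy. Alternatives were TMM, DESeq2's size factors and Wald test (1.42.0), abundant ERCC transcripts only, other filters, summed *Hspa1a* and *Hspa1b*, a replicate block, other slopes, gene span and each library left out. The reads carry no molecular identifiers in the files, so depth bounds counting error only.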

Additional observations from a re-analysis of the deposited data

Results flagged for a closer look

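The share of *Hsp90aa1* changed with EU time differently in the 2 genotypes by the interaction term of the edgeR fit. The log2 difference of *Tet2*-KO over WT was 0.31 at 10 min, 0.22 at 20 min and 0.21 at 40 min, and from 10 to 40 min it changed by -0.0971 (SE 0.0245, adjusted p = 0.00902). All 9 *Tet2*-KO libraries were above all 9 WT libraries, so with EU time the difference between the genotypes changed in size and not in direction.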

How the results depend on the processing

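Of 542 recomputed counts of members 528 stayed within 1.5 times the reported count, and of 946 recomputed log2 folds 912 kept direction and side of the threshold. With at least 10 reads required in every library, which removes *Hspa1a* and *Hspa1b*, members lower as a share were 2 at 10 min and 3 over the mean. With TMM, DESeq2's size factors or its Wald test, members with a lower change of the share in time in *Tet2*-KO than in WT were 2. With 1 library left out, members lower per ERCC read at 40 min were 0 to 1 (1 without WT 10 min replicate 1 or 2, WT 40 min replicate 1 or *Tet2*-KO 40 min replicate 2). Members higher as a share in *Tet2*-KO were then 2 to 3 at 10 min, 3 at 20 min and 2 to 3 at 40 min. Lower shares were 2 to 5 at 10 min (2 without *Tet2*-KO 10 min replicate 2), 1 to 2 at 20 min (2 without WT 10 min replicate 3), 1 to 2 with EU time in *Tet2*-KO (1 without *Tet2*-KO 40 min replicate 1) and 1 to 2 in the genotype difference (2 without *Tet2*-KO 10 min replicate 1 or WT 10 min replicate 3). The log2 fold of *Hspe1* as a share turned to 0.0346 with TMM, 0.0297 with DESeq2's size factors and 0.0298 with its Wald test. That of *Hsp90aa1* with EU time in WT was 0.1005, 0.0972 and 0.0972 in the same order, and *Hspa1a* summed with *Hspa1b* gave 0.3718 with EU time in *Tet2*-KO. Leaving out 1 library gave -0.0181 to 0.0125 for *Hspe1* as a share, and with EU time in WT -0.0176 to 0.0111 for *Hsp90aa1*, -0.3904 to 0.2419 for *Hspa1a* and -0.3755 to 0.0611 for *Hspa1b*, and it gave -0.0623 to 0.1424 for *Hspa1b* per ERCC read. The rise with EU time of *Dnajb1* in WT was called at 0.2228 without WT 10 min replicate 2 and at 0.2192 without WT 40 min replicate 3, and that of *Hspa1b* in *Tet2*-KO at 1.284 without *Tet2*-KO 10 min replicate 2 and at 1.1783 without *Tet2*-KO 40 min replicate 1. The cause was not tested. With the replicate block 7 members stayed higher per ERCC read over the mean, 3 higher and 5 lower as a share, and the counts of all 11 comparisons were the same as without it. Same-numbered libraries of different groups did not deviate together (median correlation 0.00, from -0.092 to 0.09), so the numbers do not pair the samples. Pairs of EU times moved 17 of 20 rate ratios by more than their SE, and 10 and 20 min alone turned the sign of the log2 ratio for *Dnajb1* (-0.0257) and *Hspa1a* (0.5075), and gene span in place of exon length changed 6 of 20 places in the order of levels. Low read numbers limit *Hspa1a* and *Hspa1b*.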
